A study of Mus musculus with 34 samples.

Results

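The 10 genes described here encode chains of the receptors for the cytokines that polarise T cells and keep them alive: Il12rb1, Il12rb2, Il18r1, Il18rap, Il7r, Il4ra, Il6ra, Il21r, Ifngr1 and Il27ra. They were chosen by symbol, after the gene identifiers of the count table had been mapped to GENCODE M21, and are 10 of 48526 genes in the table. All 10 passed the filter on low counts that left 18292 genes. The plot of levels by library shows all 10 in each of the 13 groups, and the text prints only part of these levels.

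After removal of ribosomal RNA, the RNA of pan T cells was sequenced in 34 libraries. The cells had been taken from mouse spleen by negative selection, and CD4 and CD8 cells are therefore together. The mice were of the C57BL/6 strain and 6-12 weeks old. Stimulated cells had received antibodies to CD3 and CD28 with recombinant IL-2 for 24 h (day 1) or 72 h (day 3). On each of these days there were 3 libraries each of DKI, Ars2 KO, CD28 AYAA and CD28 Y170F and 2 each of CD28 KO and WT, and 2 unstimulated WT libraries formed day 0. CD28 KO lacks the costimulatory receptor CD28, CD28 AYAA changes the proline motif of its cytoplasmic tail, and CD28 Y170F changes the tyrosine motif of that tail. The design text counts DKI among the CD28 genotypes, and the labels do not say which changes it carries. Ars2 KO targets ARS2, an RNA-processing factor encoded by Srrt, and the labels name no Cre driver. No mutant group had an unstimulated library, so day 0 is WT in every comparison. The design text calls the replicates biological.

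Many cytokine receptors on T cells pair a ligand-specific chain with a chain that several receptors share. The IL-12 receptor pairs IL-12Rβ1 with IL-12Rβ2 and signals through JAK2, TYK2 and STAT4 towards the type 1 helper programme, and activation through the antigen receptor induces IL-12Rβ2. The IL-18 receptor belongs to the IL-1 receptor family and signals through MyD88. IL-7Rα, IL-4Rα and IL-21R pair with the common gamma chain, IL-6Rα pairs with gp130, IL-27Rα also pairs with gp130, and IFN-γR1 binds interferon-γ and pairs with IFN-γR2. Resting T cells carry IL-7Rα as their main survival receptor and lower it when they are activated.

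Library totals ranged from 8.35 M to 47.8 M expected counts. The 8 libraries under 12 M are all 6 DKI libraries and the WT library numbered 4 of each day, so DKI shares its depth class with WT number 4 and the other stimulated groups share theirs with WT number 1. Read from Xist and Y-linked genes, both day 0 libraries are female, the stimulated WT and the DKI libraries are male, and the other groups are mixed. Srrt averaged 44.0 CPM, counts scaled to a common library size, in Ars2 KO and 188 CPM in WT at day 1, and 119.6 CPM in Ars2 KO and 195 CPM in WT at day 3, where the libraries overlapped (108, 146 and 105 CPM in Ars2 KO, against 245 and 145 CPM in WT). Cd28 averaged 479 CPM in the libraries labelled CD28 KO and 399 CPM in WT at day 1, so the gene-level count does not check that label. The summed level of 15 B cell markers was 21.8 to 173 CPM in stimulated libraries, with 129 to 173 CPM in CD28 KO and 29.6 to 156 CPM in CD28 Y170F at day 1, and 1117 to 1249 CPM in unstimulated WT. The summed level of 17 myeloid markers was 21.2 to 61.3 CPM in stimulated libraries and 376 to 394 CPM in unstimulated WT. In these bulk libraries fewer cells of a type and less RNA per cell cannot be told apart. Fold changes are given on the log2 scale, and a bare signed value in parentheses is a log2 fold change.

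The RefSeq promoter windows of Il12rb2 and Il7r are shown because these 2 receptors moved furthest in opposite directions in CD28 KO at day 1. RefSeq promoter sequences (GRCm38.p6) matched 8 of the 10 members, and Il12rb1 and Il27ra were not matched. In capitals is the only match, in each window of 250 bases before the RefSeq start, to the STAT-type motif TTCNNNGAA, searched on both strands. The Il12rb2 window is chr6:67376189-67376438 on the minus strand. The Il7r stretch is chr15:9529877-9530040 on the minus strand. It was cut at its upstream end, so as printed it begins right after a GENCODE exon within the span of Il7r. The RefSeq start of Il7r lies 300 bases inside the GENCODE gene, so by GENCODE this stretch lies within the gene and not before it. Bases that follow this RefSeq start were not found in a GENCODE transcript of Il7r, while those that follow the Il12rb2 start were found in one of Il12rb2.
Il12rb2: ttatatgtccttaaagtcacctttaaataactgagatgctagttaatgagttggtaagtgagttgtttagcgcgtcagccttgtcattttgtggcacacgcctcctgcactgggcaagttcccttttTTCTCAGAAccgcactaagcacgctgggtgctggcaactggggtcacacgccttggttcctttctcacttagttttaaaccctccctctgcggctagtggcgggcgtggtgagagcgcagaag
Il7r: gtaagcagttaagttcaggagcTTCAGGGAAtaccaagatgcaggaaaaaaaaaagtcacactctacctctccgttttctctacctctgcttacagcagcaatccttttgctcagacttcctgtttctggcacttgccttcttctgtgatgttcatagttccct
The match lies 123 to 115 bases before the start in Il12rb2 and 142 to 134 bases before it in Il7r. Of 27025 mouse promoters, 7.06% hold at least one such match in a window of the same length. The other 6 members' windows held no STAT-type match. The FOXO-type motif GTAAACA, also searched on both strands, was found once among the 8 windows, as TGTTTAC in Il21r, and 3.07% of all promoters hold it. The AP-1 motif TGANTCA, present in 6.83% of promoters, the T-box motif AGGTGTGA, present in 1.13%, and the NF-kB motif, present in 0.344%, were not found in the 8 windows. These matches describe letters in a window and say nothing of binding.

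The plot of levels by library shows all 10 genes in all 34 libraries.

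**Figure D1:**
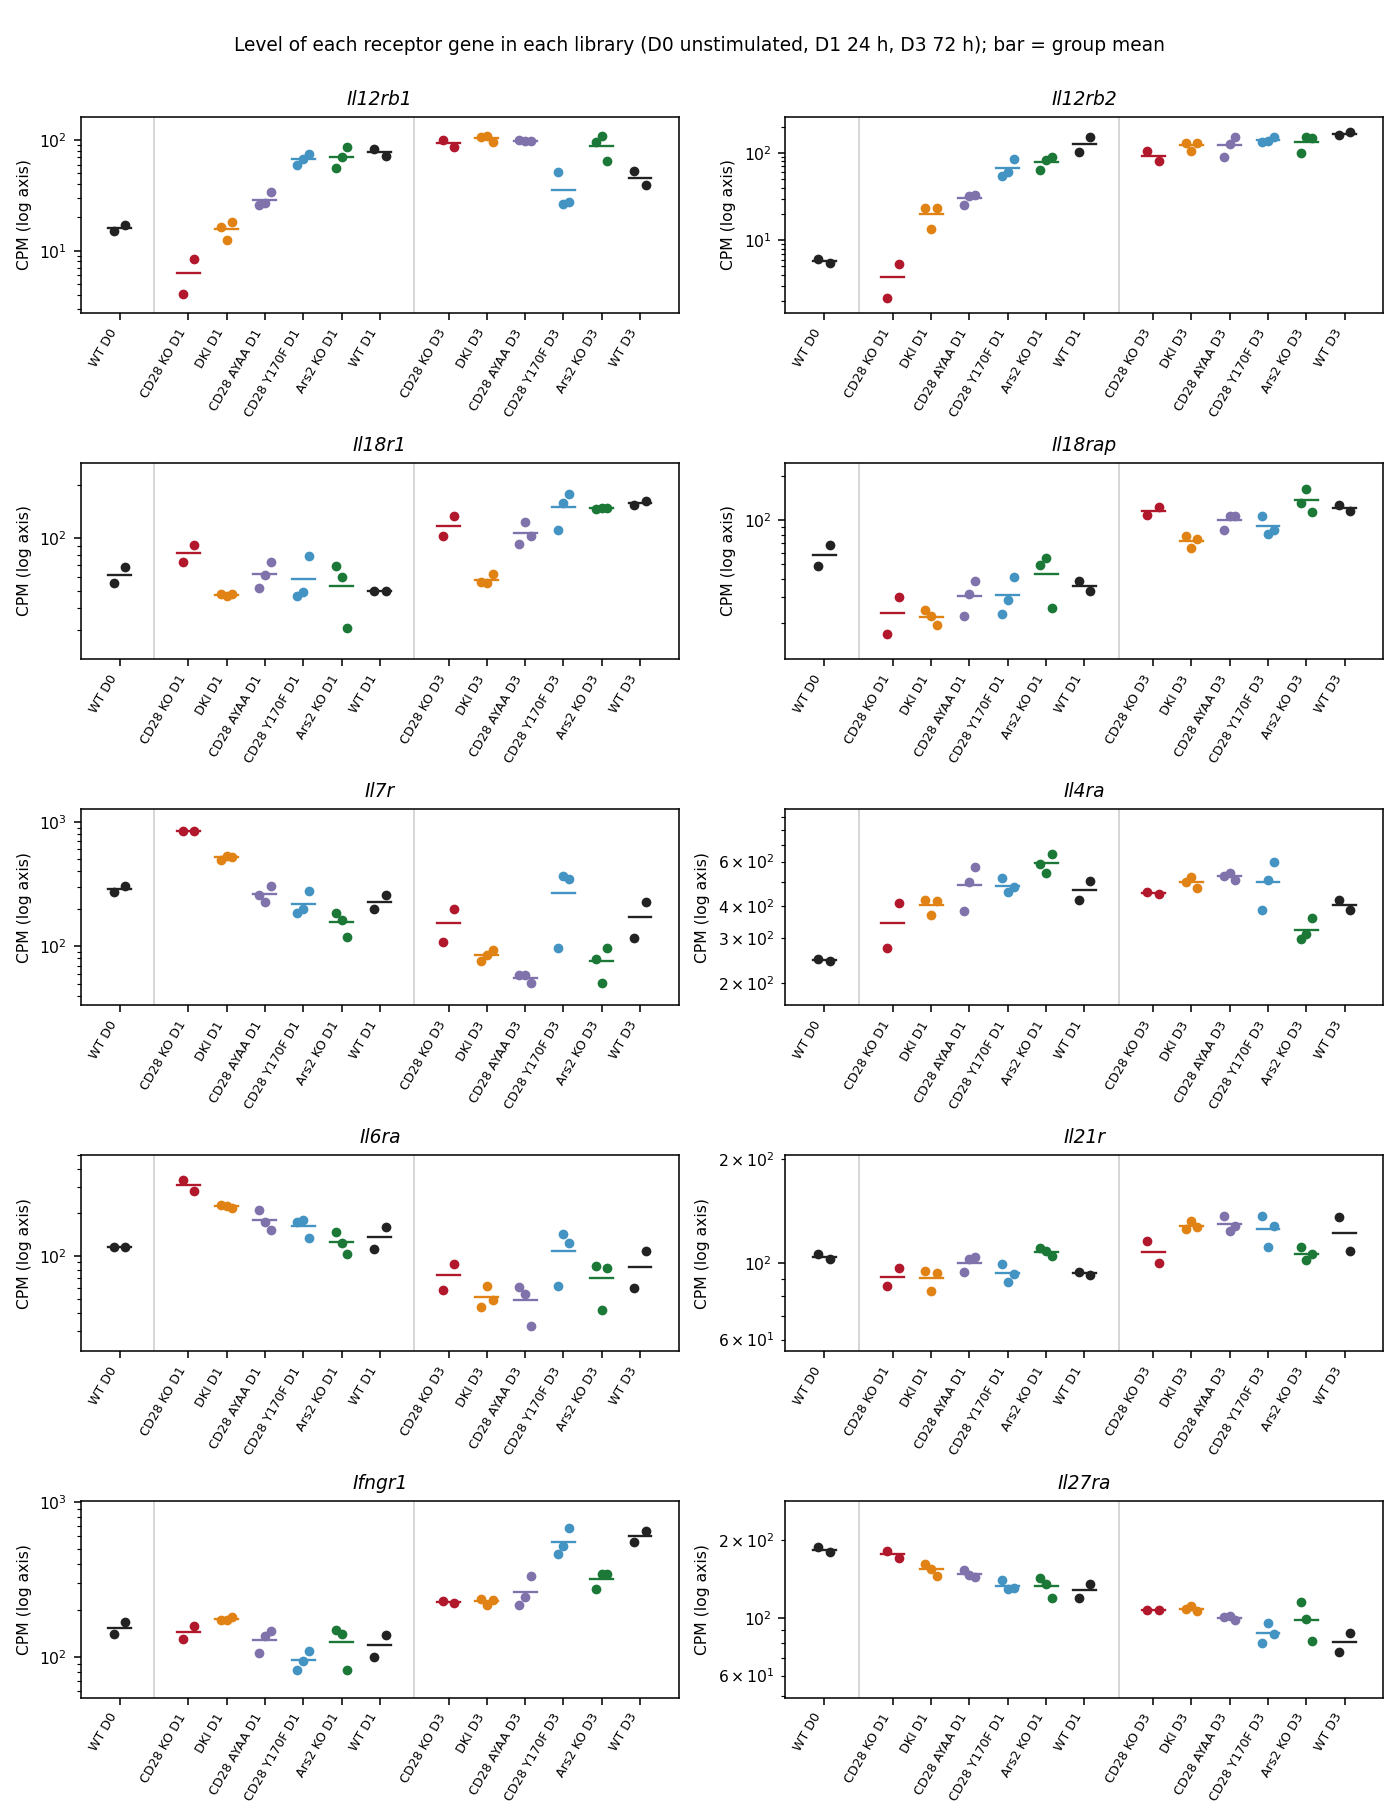
Level of each of the 10 receptor genes in every library, in CPM on a log axis. Points are libraries and bars are group means, with unstimulated WT (D0) at the left, then the day 1 groups and the day 3 groups with the mutants left of WT. At day 1 Il12rb1 and Il12rb2 are lowest in CD28 KO, and Il7r is highest there.

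The 2 chains of the IL-12 receptor rose on stimulation in WT cells, and at day 1 both were lower in CD28 KO, DKI and CD28 AYAA than in WT. Il12rb1 encodes the chain that the IL-12 and IL-23 receptors share (ENSMUSG00000000791.8, chr8:70808449-70821424, plus strand, GRCm38). It had 15.1 and 17.1 CPM in unstimulated WT, 83.4 and 71.1 CPM in WT at day 1 and 52.4 and 39.3 CPM in WT at day 3. The 3 days did not overlap: the level was 4.81-fold higher at day 1 than at day 0 (log2 fold change 2.27 with an SE of 0.29 and an adjusted p of 5.42e-07) and lower at day 3 than at day 1 (-0.75, SE 0.28, adjusted p = 0.0456). This last call was lost without any 1 of the 4 WT libraries, with Il12rb1 values of -0.98 to -0.56.

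At day 1 Il12rb1 had 4.08 and 8.37 CPM in CD28 KO, 16.3, 12.4 and 18.1 CPM in DKI and 26.0, 26.8 and 34.2 CPM in CD28 AYAA, against 83.4 and 71.1 CPM in WT. All libraries of these 3 mutants lay below both WT libraries, and both CD28 KO libraries lay below unstimulated WT as well. The log2 fold change against WT was -3.62 with an SE of 0.32 and an adjusted p of 8.35e-09 in CD28 KO, a 12.3-fold lower level. It was -2.30 with an SE of 0.27 and an adjusted p of 7.93e-07 in DKI and -1.41 with an SE of 0.25 and an adjusted p of 0.00271 in CD28 AYAA. The CD28 AYAA value was -1.52 (adjusted p = 0.00346) against WT number 1 alone, and -1.28 (adjusted p = 0.0785) against WT number 4 alone. CD28 Y170F, with 59.3, 67.5 and 75.4 CPM, and Ars2 KO, with 56.3, 70.6 and 85.8 CPM, overlapped WT at day 1.

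At day 3 Il12rb1 was higher than WT in 4 mutants. It had 101 and 87.1 CPM in CD28 KO, 107, 108 and 96.9 CPM in DKI, 99.3, 97.7 and 98.8 CPM in CD28 AYAA and 95.3, 108 and 64.5 CPM in Ars2 KO, against 52.4 and 39.3 CPM in WT. All 11 libraries of these 4 mutants lay above both WT libraries. Relative to WT, Il12rb1 was higher by 1.03 with an SE of 0.28 and an adjusted p of 0.0106 on the log2 scale in CD28 KO, 1.17 with an SE of 0.26 and an adjusted p of 0.00198 in DKI, 1.10 with an SE of 0.26 and an adjusted p of 0.00384 in CD28 AYAA and 0.95 with an SE of 0.26 and an adjusted p of 0.0165 in Ars2 KO. Without WT number 4 the values were 0.84, 0.99, 0.91 and 0.77 in the same order of mutants, and the 4 calls were lost, with adjusted p = 0.0567 to 0.211. The CD28 KO call was also lost without 1 of the 2 CD28 KO libraries (log2 fold change 0.91), and the Ars2 KO call without Ars2 KO number 2 (0.79). CD28 Y170F had 52.0, 26.6 and 27.5 CPM at day 3, with its number 1 near the higher WT library and its other libraries below both. Without that number 1 the log2 fold change of CD28 Y170F against WT passed the test at -0.77, and with it the value was -0.38 (adjusted p = 0.917).

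Il12rb2 encodes the signalling chain that recruits STAT4 (ENSMUSG00000018341.12, chr6:67291318-67376188, minus strand). It had 6.02 and 5.43 CPM in unstimulated WT, 101 and 154 CPM in WT at day 1 and 159 and 174 CPM in WT at day 3. With a rise of 22.2-fold by day 1 (log2 fold change 4.47 with an SE of 0.34 and an adjusted p of 7.77e-11) it changed most of the 10 genes. Between day 1 and day 3 of WT it did not pass the test (0.39, adjusted p = 0.349), and with the replicate number as a block it passed (0.44, adjusted p = 0.0306 by edgeR). At day 1 it had 2.19 and 5.34 CPM in CD28 KO, 23.6, 13.5 and 23.2 CPM in DKI and 25.4, 31.8 and 33.1 CPM in CD28 AYAA, all below both WT libraries. Both CD28 KO libraries lay below unstimulated WT without passing the test (log2 fold change against day 0 -0.58 with an SE of 0.35 and an adjusted p of 0.167), while DKI and CD28 AYAA were above it by 1.81 and 2.39 (adjusted p = 2.36e-05 and 3.88e-07).

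Against WT of day 1 the log2 fold change of Il12rb2 was -5.06 with an SE of 0.36 and an adjusted p of 5.82e-10 in CD28 KO, a 33.3-fold lower level. It was -2.66 with an SE of 0.28 and an adjusted p of 2.73e-07 in DKI and -2.08 with an SE of 0.26 and an adjusted p of 6.45e-05 in CD28 AYAA. All 3 calls held against either WT library alone, at -4.73 and -5.27 in CD28 KO, -2.33 and -2.89 in DKI, and -1.75 and -2.34 in CD28 AYAA, for WT number 1 and number 4. CD28 Y170F had 54.0, 60.7 and 86.0 CPM and Ars2 KO had 63.6, 83.8 and 88.8 CPM. Both lay below the 2 WT libraries without passing the test (-0.93, adjusted p = 0.763, and -0.69, adjusted p = 0.307), and both passed it with sex as a term, at -1.11 and -1.01.

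By day 3 Il12rb2 was high in every genotype, with 105 and 80.9 CPM in CD28 KO, 131, 105 and 130.0 CPM in DKI, 88.9, 127 and 152 CPM in CD28 AYAA, 135, 137 and 152 CPM in CD28 Y170F and 99.0, 153 and 147 CPM in Ars2 KO, against 159 and 174 CPM in WT. Every mutant library lay below both WT libraries. The test was passed in CD28 KO (-0.84 with an SE of 0.29 and an adjusted p of 0.0407), and this call was lost without any 1 of its 4 libraries, at -1.05 to -0.67. The gene overlaps Serbp1, on the opposite strand, by 6419 bases, and the strand setting of the counting is not stated. Serbp1 averaged 429 CPM in CD28 KO and 941 CPM in WT at day 1, and Il12rb2 was as low as 2.19 CPM in a CD28 KO library of that day. Il4ra and Il6ra overlap the antisense genes Gm44876 and Gm42809 in the same way.

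The 2 chains can also be set against each other. Per kilobase of exon, the ratio of Il12rb2 to Il12rb1 at day 1 averaged 0.634 in CD28 KO, 1.37 in DKI, 1.13 in CD28 AYAA, 1.21 in Ars2 KO and 1.06 in CD28 Y170F, against 1.83 in WT. At day 3 it averaged 1.07 in CD28 KO, 1.28 in DKI, 1.35 in CD28 AYAA, 1.71 in Ars2 KO and 4.78 in CD28 Y170F, against 4.03 in WT. It was 0.388 in unstimulated WT. These ratios are descriptions and were not tested.

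**Figure D2:**
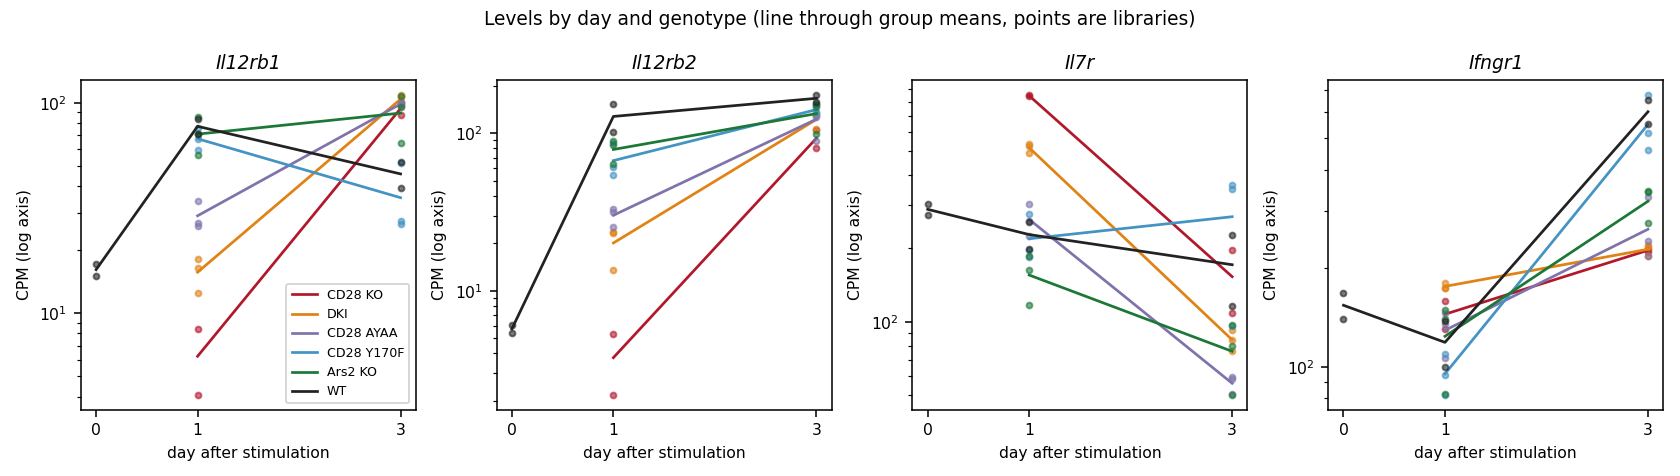
Levels of Il12rb1, Il12rb2, Il7r and Ifngr1 in CPM (log axis) by day after stimulation, 1 line per genotype through the group means, with libraries as points. Day 0 exists for WT alone. Il12rb1 and Il12rb2 rise between day 1 and day 3 in CD28 KO, DKI and CD28 AYAA, Il7r falls between day 1 and day 3 in these genotypes, and Ifngr1 rises most in CD28 Y170F and WT.

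The IL-18 receptor genes lie side by side on chromosome 1, 14.5 kb apart and 20.2 Mb from Cd28, and were higher in WT at day 3 but not at day 1. Il18r1 encodes the ligand-binding chain (ENSMUSG00000026070.15, chr1:40465552-40500854, plus strand) and Il18rap the accessory chain (ENSMUSG00000026068.11, chr1:40515362-40551705, plus strand). Il18r1 had 55.4 and 68.5 CPM in unstimulated WT, 50.1 and 50.3 CPM in WT at day 1 and 155 and 163 CPM in WT at day 3. The day 3 libraries stood above all others of WT, with a log2 fold change over day 0 of 1.36 with an SE of 0.27 and an adjusted p of 1.37e-04. Il18rap had 48.7 and 67.7 CPM, 38.4 and 33.0 CPM and 127 and 115 CPM on the 3 days, with a log2 fold change of 1.06 with an SE of 0.30 and an adjusted p of 0.00456 for day 3 over day 0. Without day 0 number 1 this Il18rap call was lost (0.84).

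In DKI both genes were lower than WT at day 3, and Il18r1 did not pass the test between day 1 and day 3 (0.28, adjusted p = 0.311). At day 3 Il18r1 had 56.0, 55.8 and 62.8 CPM in DKI, against 155 and 163 CPM in WT, and the log2 fold change was -1.45 with an SE of 0.24 and an adjusted p of 1.11e-04, with -1.41 against WT number 1 and -1.48 against WT number 4. The level in DKI at day 3 was within the range of unstimulated WT (-0.09 against day 0, adjusted p = 0.776). Il18rap had 78.3, 65.3 and 74.4 CPM in DKI and 127 and 115 CPM in WT at day 3, with a log2 fold change of -0.74 with an SE of 0.27 and an adjusted p of 0.0487 that missed the threshold without any 1 of these 5 libraries, at -0.81 to -0.66. In CD28 KO at day 3 Il18r1 had 102 and 133 CPM and in CD28 AYAA 92.9, 124 and 103 CPM, both below WT without passing the test (-0.43 and -0.57).

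At day 1 Il18r1 had 73.2 and 91.2 CPM in CD28 KO and 50.1 and 50.3 CPM in WT, a rise of 0.71 with an SE of 0.27 and an adjusted p of 0.0332 that was lost without either WT library or without CD28 KO number 2, at 0.54 to 0.77. Its neighbour Il18rap was not called there, with 16.9 and 29.7 CPM in CD28 KO and 38.4 and 33.0 CPM in WT (-0.62, adjusted p = 0.111). It passed the test without CD28 KO number 2 (-1.09). Per kilobase, Il18rap was 0.198 of Il18r1 in CD28 KO at day 1 and 0.507 of it in WT, and 0.892 in DKI and 0.546 in WT at day 3. These ratios were not tested. Both genes were higher at day 3 than at day 1 in WT, CD28 AYAA, CD28 Y170F and Ars2 KO.

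Il7r, the receptor chain for the survival cytokine IL-7 (ENSMUSG00000003882.4, chr15:9505788-9530176, minus strand), was higher than WT in CD28 KO and DKI at day 1 and lower than WT in DKI, CD28 AYAA and Ars2 KO at day 3. It had 274 and 305 CPM in unstimulated WT, 199 and 257 CPM in WT at day 1 and 116 and 227 CPM in WT at day 3, and neither later day passed the test against day 0 (-0.35, adjusted p = 0.487, and -0.76, adjusted p = 0.115). Without WT day 3 number 4 the fall at day 3 passed the test, at -1.32. At day 1 it had 842 and 849 CPM in CD28 KO and 492, 535 and 525 CPM in DKI, against 199 and 257 CPM in WT. Neither mutant overlapped WT, and CD28 KO was also above unstimulated WT (1.55 with an SE of 0.40 and an adjusted p of 0.00235). The log2 fold change against WT of day 1 was 1.89 with an SE of 0.41 and an adjusted p of 5.05e-04 in CD28 KO and 1.18 with an SE of 0.37 and an adjusted p of 0.0216 in DKI. The CD28 KO call held against each WT library alone (2.09 and 1.78), and the DKI call was lost against WT number 4, its depth partner (1.05, adjusted p = 0.240). CD28 AYAA had 258, 225 and 305 CPM, CD28 Y170F 184, 198 and 276 CPM and Ars2 KO 186, 163 and 118 CPM at day 1, and none of these passed the test.

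At day 3 Il7r had 76.0, 84.3 and 92.8 CPM in DKI, 58.3, 59.2 and 50.5 CPM in CD28 AYAA and 79.6, 50.2 and 97.3 CPM in Ars2 KO, against 116 and 227 CPM in WT. All 9 libraries of these mutants were below both WT libraries, which themselves differed: WT number 4 was the higher. The log2 fold change was -1.02 with an SE of 0.36 and an adjusted p of 0.0412 in DKI, -1.61 with an SE of 0.36 and an adjusted p of 0.00223 in CD28 AYAA and -1.17 with an SE of 0.36 and an adjusted p of 0.0305 in Ars2 KO. Without WT number 4 it was -0.45, -1.05 and -0.61 in that order, and the 3 calls were lost. The DKI call was also lost without any 1 DKI library (-1.10 to -0.95), and the Ars2 KO call without its number 1 (-1.21) or number 2 (-0.95). CD28 KO, with 109 and 198 CPM, overlapped WT. In CD28 Y170F the libraries spread from 96.6 to 364 CPM, and without the low number 1 the log2 fold change against WT passed the test at 1.06, against 0.66 with it.

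Il4ra, the IL-4 receptor chain that activates STAT6 (ENSMUSG00000030748.9, chr7:125552120-125579474, plus strand), rose on stimulation in WT and was called against WT in 1 of the 10 mutant comparisons. It had 248 and 245 CPM in unstimulated WT, 426 and 501 CPM in WT at day 1 and 424 and 387 CPM in WT at day 3. Both later days were above day 0, by 0.91 with an SE of 0.17 and an adjusted p of 1.12e-04 and by 0.72 with an SE of 0.17 and an adjusted p of 0.00121 on the log2 scale. At day 1 CD28 KO had 274 and 411 CPM against 426 and 501 CPM in WT (-0.43 with an SE of 0.17 and an adjusted p of 0.0444), with its higher library just below the lower WT library. The call was lost without CD28 KO number 1 (-0.17) and without either WT library. In all other mutants and on both days Il4ra did not pass the test, with log2 fold changes from -0.33 to 0.37.

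Il21r, the IL-21 receptor chain (ENSMUSG00000030745.9, chr7:125603429-125633570, plus strand), lies 24.0 kb from Il4ra and was the steadiest of the 10. Its 34 libraries lay between 83.2 and 137 CPM. In WT it had 106 and 102 CPM at day 0, 94.3 and 92.4 CPM at day 1 and 136 and 108 CPM at day 3. The rise between day 1 and day 3 passed the test (0.39 with an SE of 0.10 and an adjusted p of 0.00551), and without WT day 3 number 1 it did not (0.22). No mutant passed the test against WT on either day, with log2 fold changes from -0.20 to 0.21.

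The chains that pair with gp130 were highest in CD28 KO or in unstimulated cells. Il6ra, the IL-6 receptor chain (ENSMUSG00000027947.11, chr3:89864059-89913196, minus strand), had 115 and 115 CPM in unstimulated WT, 112 and 159 CPM in WT at day 1 and 59.7 and 108 CPM in WT at day 3, without a call between these days. With the replicate number as a block, its fall between day 1 and day 3 of WT passed the test (log2 fold change -0.71, adjusted p = 0.00348 by edgeR), as it did without the filter on low counts (-0.68) and without WT day 3 number 4 (-1.18). At day 1 it had 336 and 283 CPM in CD28 KO, against 112 and 159 CPM in WT, with no overlap and a log2 fold change of 1.19 with an SE of 0.34 and an adjusted p of 0.00649. Without WT number 1 the value was 1.02 and no longer called. DKI had 225, 224 and 216 CPM at day 1, also above both WT libraries (0.71, adjusted p = 0.0983). At day 3 the level was 58.0 and 88.2 CPM in CD28 KO, 44.1, 61.7 and 49.2 CPM in DKI and 60.5, 54.2 and 32.4 CPM in CD28 AYAA, and each group overlapped WT. Against WT number 4 alone, DKI (-1.06) and CD28 AYAA (-1.14) passed the test.

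Il27ra, the IL-27 receptor chain (ENSMUSG00000005465.9, chr8:84030294-84042589, minus strand), fell on stimulation in WT. It had 188 and 179 CPM at day 0, 119.8 and 136 CPM at day 1 and 74.1 and 87.5 CPM at day 3 with no overlap, and the day 3 level was 2.27-fold lower than that of day 0 (-1.19 with an SE of 0.12 and an adjusted p of 4.23e-09). At day 1 it had 182 and 170.3 CPM in CD28 KO, overlapping unstimulated WT, against 119.8 and 136 CPM in WT (0.46 with an SE of 0.11 and an adjusted p of 0.00176). At day 3 it had 108 and 107 CPM in CD28 KO, 108, 111 and 106 CPM in DKI and 101, 102 and 98.4 CPM in CD28 AYAA, against 74.1 and 87.5 CPM in WT. These 3 mutants lay above both WT libraries, by log2 fold changes of 0.41, 0.43 and 0.31 (adjusted p = 0.0116, 0.00425 and 0.0331, same order). Against WT number 4 alone the 3 values were 0.30, 0.31 and 0.20 and none was called. The CD28 KO call and the CD28 AYAA call were also lost without any 1 library of the mutant.

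Ifngr1, the ligand-binding chain of the interferon-γ receptor (ENSMUSG00000020009.12, chr10:19591949-19610229, plus strand), showed its main change between day 1 and day 3. It had 139.9 and 169 CPM in unstimulated WT, 99.7 and 138 CPM in WT at day 1 and 552 and 652 CPM in WT at day 3. The day 3 level was 5.08-fold that of day 1 (2.34 with an SE of 0.24 and an adjusted p of 6.59e-08). At day 3 it had 229.9 and 224 CPM in CD28 KO, 236, 218 and 232 CPM in DKI, 218, 242 and 330.4 CPM in CD28 AYAA and 275, 342 and 345 CPM in Ars2 KO, against 552 and 652 CPM in WT. All 11 libraries of these mutants were below both WT libraries, while CD28 Y170F, with 459, 517 and 676 CPM, overlapped WT.

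The log2 fold change of Ifngr1 against WT at day 3 was -1.41 with an SE of 0.23 and an adjusted p of 1.36e-04 in CD28 KO and -1.40 with an SE of 0.21 and an adjusted p of 2.93e-05 in DKI. It was -1.19 with an SE of 0.20 and an adjusted p of 2.03e-04 in CD28 AYAA and -0.91 with an SE of 0.20 and an adjusted p of 0.00439 in Ars2 KO. The calls in CD28 KO, DKI and CD28 AYAA held against either WT library alone, at -1.52 to -1.07, and the Ars2 KO call was lost without WT number 4 (-0.78, adjusted p = 0.0809). At day 1 DKI had 174, 174 and 179.9 CPM and WT 99.7 and 138 CPM, a log2 fold change of 0.57 with an SE of 0.21 and an adjusted p of 0.0490 that was lost without WT number 1 (0.40) and without any 1 DKI library (0.56 to 0.58).

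Some markers of T cells, NK cells, myeloid cells and mast cells were called against WT at day 3. Of all genes, 20.0% were called in CD28 KO, 23.4% in DKI, 21.7% in CD28 AYAA, 0.0273% in CD28 Y170F and 12.9% in Ars2 KO. Of 15 T cell markers, 11 were lower and 0 higher than WT in CD28 KO, 11 lower and 1 higher in DKI, 8 lower and 1 higher in CD28 AYAA, 6 lower and 0 higher in Ars2 KO, and 0 in either direction in CD28 Y170F. Cd4 had 40.7 to 47.4 CPM in CD28 KO, 65.3 to 72.4 CPM in DKI, 45.3 to 95.1 CPM in CD28 AYAA, 99.5 to 159 CPM in CD28 Y170F and 57.8 to 210 CPM in Ars2 KO, against 102 to 133 CPM in WT. Cd8a had 504 to 569 CPM in CD28 KO, 639 to 684 CPM in DKI, 554 to 663 CPM in CD28 AYAA, 480 to 588 CPM in CD28 Y170F and 295 to 479 CPM in Ars2 KO, against 428 to 450 CPM in WT. The summed level of 12 NK cell markers, among them Prf1, Gzma and Eomes, which CD8 T cells also express, was 482 to 562 CPM in CD28 KO, 347 to 394 CPM in DKI, 322 to 509 CPM in CD28 AYAA, 88.7 to 171 CPM in CD28 Y170F and 203 to 528 CPM in Ars2 KO, against 125 to 168 CPM in WT. Of the 12, 5 were called higher in CD28 KO, 3 in DKI, 2 in CD28 AYAA, 0 in CD28 Y170F and 3 in Ars2 KO. The shares above count both directions. Of all 18292 genes, those called higher were 1568 in CD28 KO, 1877 in DKI, 1894 in CD28 AYAA, 2 in CD28 Y170F and 1207 in Ars2 KO. Of 17 myeloid markers 6 were called higher in Ars2 KO. Of 8 mast cell and basophil markers 4 were called higher in Ars2 KO, and their summed level was 7.87 to 29.2 CPM in Ars2 KO and 2.82 to 3.88 CPM in WT. The defining NK cell marker Ncr1 was at most 2.18 CPM in stimulated libraries. Klrb1c, another defining NK cell marker, had 14.1 to 16.0 CPM in CD28 KO, 3.11 to 3.96 CPM in DKI, 3.62 to 12.5 CPM in CD28 AYAA, 0.39 to 0.629 CPM in CD28 Y170F and 1.77 to 9.9 CPM in Ars2 KO, against 0.497 to 1.11 CPM in WT. At day 1 Cd4 had 190 to 239 CPM in CD28 KO, 207 to 220 CPM in DKI and 172 to 227 CPM in CD28 AYAA. It had 173 to 187 CPM in CD28 Y170F and 140 to 177 CPM in Ars2 KO, against 155 to 188 CPM in WT. On that day Cd8a had 295 to 341 CPM in CD28 KO, 402 to 419 CPM in DKI and 423 to 490 CPM in CD28 AYAA. It had 417 to 489 CPM in CD28 Y170F and 380 to 493 CPM in Ars2 KO, against 404 to 431 CPM in WT. The part of these shifts, on either day, in the receptor levels was not tested.

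The changes on stimulation were counted over the 10 members and set beside the share of all genes called. A gene was called at a Benjamini-Hochberg adjusted p under 0.05 over all 18292 genes, by edgeR's quasi-likelihood test. In WT, 4 of 10 members were called at day 1 against day 0, beside 51.3% of all genes, and 3 were higher. At day 3 against day 0, 7 of 10 were called, 6 of them higher, beside 50.5%. At day 3 against day 1, 6 were called, 4 of them higher, beside 29.5%. Stimulated mutants were set against the same unstimulated WT. At day 1, 5 members were called in CD28 KO beside 52.2% of all genes, 5 in DKI beside 49.1%, 5 in CD28 AYAA beside 50.0%, 6 in CD28 Y170F beside 54.7% and 5 in Ars2 KO beside 53.6%. At day 3 the counts were 7 in CD28 KO beside 52.1%, 8 in DKI beside 58.1%, 10 in CD28 AYAA beside 60.2%, 8 in CD28 Y170F beside 53.8% and 9 in Ars2 KO beside 56.8%. Without day 0 number 1 the counts were 3 in DKI and 3 in CD28 AYAA at day 1 and 4 in CD28 KO at day 3, and without day 0 number 2 the DKI count was 3. These comparisons share the day 0 libraries, which are deeper than the others and hold more B cell and myeloid RNA. Both day 0 libraries are female and the stimulated WT libraries are male. Within WT alone, sex and stimulation cannot be told apart.

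Against WT of the same day, members were called in CD28 KO, DKI and CD28 AYAA at day 1. In CD28 KO 7 of 10 passed, 4 higher and 3 lower, beside 43.3% of all genes, and the median log2 fold change was 0.13 for the members and 0.02 for all genes. In the same comparison 10 of 15 B cell markers were higher, their summed level was 129 to 173 CPM in CD28 KO and 24.9 to 46.5 CPM in WT, and their part in the receptor counts was not tested. In DKI 4 passed, 2 in each direction, beside 26.0%, and in CD28 AYAA 2 passed, both lower, beside 3.61%. In CD28 Y170F 0 passed beside 0.0547% of all genes, with 1 member at an unadjusted p under 0.05, and DESeq2 and limma-voom also called 0. In Ars2 KO 0 passed beside 0.399%, with 3 members at an unadjusted p under 0.05, and again both other tools called 0. Against WT number 4 alone the counts were 4 in CD28 KO, 2 in DKI and 1 in CD28 AYAA, and against WT number 1 alone they were 5, 5 and 2.

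At day 3, 4 members passed in CD28 KO beside 20.0% of all genes, 6 in DKI beside 23.4%, 4 in CD28 AYAA beside 21.7% and 3 in Ars2 KO beside 12.9%. The median in DKI was -0.57 for the members and -0.02 for all genes. In CD28 Y170F 0 passed beside 0.0273%, and 0 members had an unadjusted p under 0.05, with 0 calls by DESeq2 and limma-voom. Without CD28 Y170F number 1 the count was 2. The Ars2 KO count was 1 without Ars2 KO number 2, and the CD28 KO count was 1 without one of its libraries and 2 without the other. Against WT number 4 alone the counts were 2, 5, 4 and 3 in CD28 KO, DKI, CD28 AYAA and Ars2 KO, and against WT number 1 alone they were 2, 3, 2 and 0. Counts with a library left out, on either day, were not set beside the share of all genes called in the same fit. Changes in these counts therefore do not separate the members from all genes. The 5 mutants share the 2 WT libraries of a day. Il12rb1 was higher and Ifngr1 lower in each of the 4 mutants with calls, and all 4 comparisons rest on the same WT pair.

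**Figure D3:**
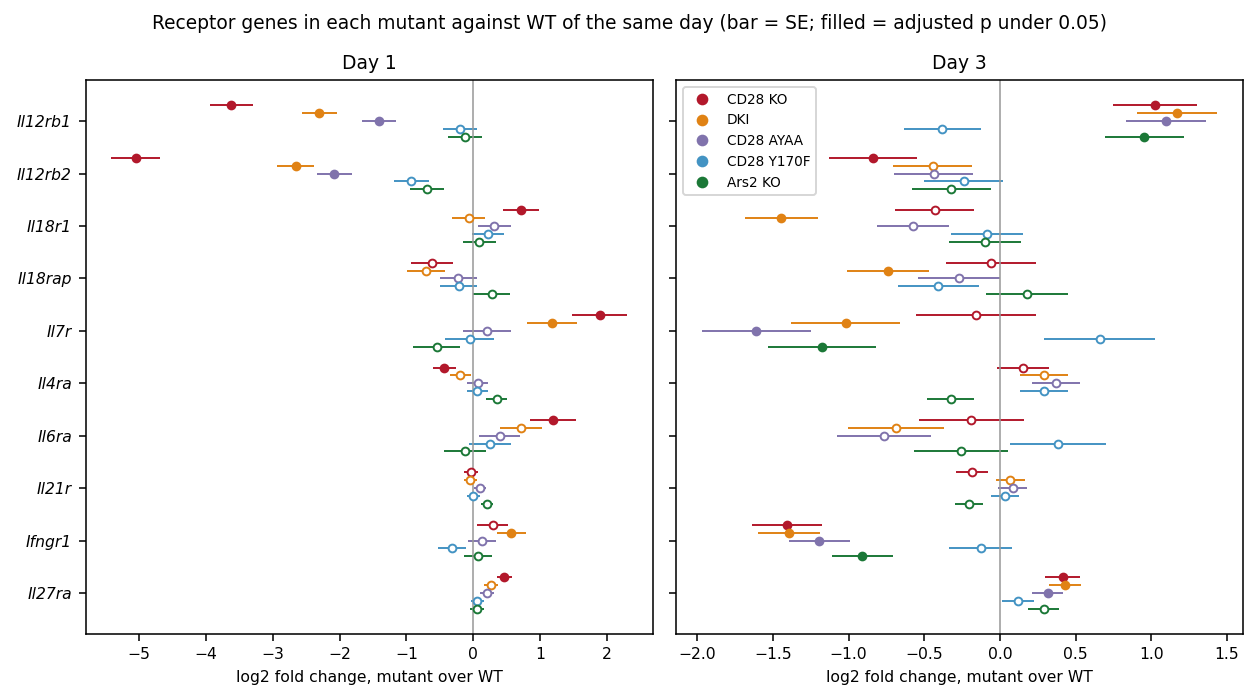
Log2 fold change of each receptor gene in 5 mutants over WT of the same day, day 1 at the left and day 3 at the right. Bars are standard errors and filled points have an adjusted p under 0.05. Il12rb1 and Il12rb2 stand at the far left on day 1 for CD28 KO, DKI and CD28 AYAA, and on day 3 Il12rb1 lies to the right and Ifngr1 to the left in these mutants and Ars2 KO.

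**Figure D4:**
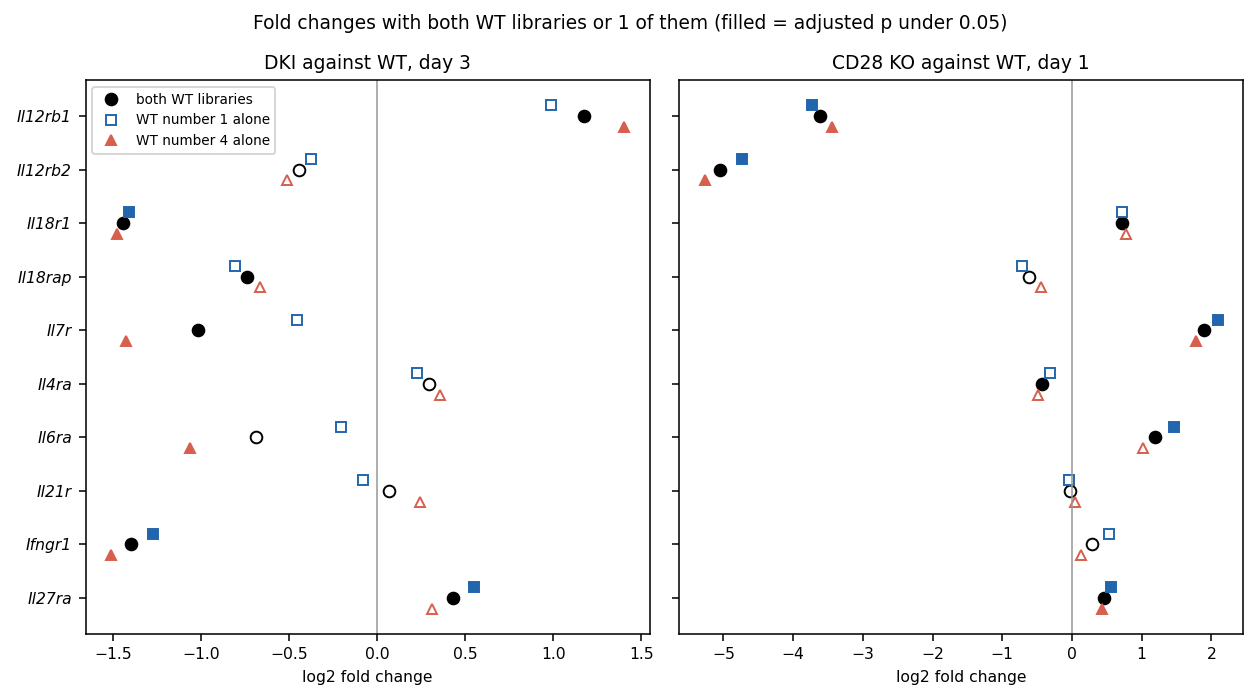
Log2 fold change of each receptor gene with both WT libraries (black circles), WT number 1 alone (blue squares) or WT number 4 alone (red triangles), in DKI at day 3 (left) and in CD28 KO at day 1 (right). Filled symbols have an adjusted p under 0.05. Il7r and Il6ra in DKI at day 3 move most with the choice of WT library, and Il12rb1, Il12rb2 and Il7r in CD28 KO at day 1 are filled in all 3 cases.

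The 2 single-motif alleles could be set against each other directly. At day 1 Il12rb1 had 26.0, 26.8 and 34.2 CPM in CD28 AYAA and 59.3, 67.5 and 75.4 CPM in CD28 Y170F, with no overlap and a log2 fold change of -1.22 with an SE of 0.23 and an adjusted p of 0.00331. Il12rb2 had 25.4, 31.8 and 33.1 CPM in CD28 AYAA and 54.0, 60.7 and 86.0 CPM in CD28 Y170F (-1.15 with an SE of 0.24 and an adjusted p of 0.00831), a call lost without CD28 AYAA number 1 (-1.04) or CD28 Y170F number 3 (-0.94). These were 2 of 10 members, beside 4.35% of all genes. Libraries of the same number deviated together at day 1, with correlations of 0.368, 0.373 and 0.655. At day 3 the correlations between the alleles were -0.209, 0.148 and 0.0954. In both alleles numbers 1 and 2 were male and number 3 female, so shared number and sex cannot be told apart. With the replicate number as a block 5 members passed at day 1. The added ones were Il7r (0.27), Ifngr1 (0.43) and Il27ra (0.14), all higher in CD28 AYAA. The count of 5 was not set beside the share of all genes called in the block fit.

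At day 3 CD28 AYAA and CD28 Y170F differed in 4 members, beside 36.8% of all genes. Il12rb1 was higher in CD28 AYAA (99.3, 97.7 and 98.8 CPM) than in CD28 Y170F (52.0, 26.6 and 27.5 CPM), by 1.48 with an SE of 0.23 and an adjusted p of 2.26e-05. Il7r was lower, with 58.3, 59.2 and 50.5 CPM in CD28 AYAA and 96.6, 364 and 349 CPM in CD28 Y170F (-2.27 with an SE of 0.34 and an adjusted p of 1.41e-05). Il6ra and Ifngr1 were lower as well (-1.15 with an SE of 0.28 and an adjusted p of 0.00237, and -1.06 with an SE of 0.19 and an adjusted p of 8.72e-05). For all 4 genes the libraries of the alleles did not overlap, and the share of all genes without overlap was not set beside this. For Il6ra the gap was narrow, from 60.5 CPM in the highest CD28 AYAA library to 61.6 CPM in the lowest CD28 Y170F library.

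DKI and CD28 KO differed at day 1 in 3 members, beside 9.06% of all genes. Il12rb2 had 23.6, 13.5 and 23.2 CPM in DKI and 2.19 and 5.34 CPM in CD28 KO, a log2 fold change of 2.40 with an SE of 0.34 and an adjusted p of 5.40e-05. Il12rb1 was also higher in DKI (1.32 with an SE of 0.30 and an adjusted p of 0.00696), with the value at 0.90 and no call without CD28 KO number 1. Il18r1 was lower in DKI (-0.78 with an SE of 0.24 and an adjusted p of 0.0428), a call lost without any 1 of the 5 libraries, at -0.93 to -0.61, and the count was 1 without CD28 KO number 1. At day 3, 0 members passed beside 0.454% of all genes, with 4 at an unadjusted p under 0.05. limma-voom also called 0, and DESeq2 called Il18r1, for which edgeR gave -1.01 with an SE of 0.24 and an adjusted p of 0.0524. All 6 DKI libraries are shallow and all CD28 KO libraries are deeper, so genotype and depth class cannot be told apart in this pair.

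Within each mutant, day 3 was set against day 1. In CD28 KO 7 members passed, beside 45.6% of all genes, and Il12rb1 and Il12rb2 rose by 3.90 with an SE of 0.32 and an adjusted p of 6.91e-10 and 4.60 with an SE of 0.36 and an adjusted p of 3.11e-10, while Il7r fell (-2.46) and Il6ra fell (-2.08). In DKI 7 members passed, beside 47.4%, with Il12rb1 at 2.73, Il12rb2 at 2.60, Il7r at -2.62 and Il6ra at -2.10. In CD28 AYAA 9 passed, beside 45.4%, with the same 4 genes at 1.77, 2.02, -2.23 and -1.86. In CD28 Y170F 7 passed, beside 40.3%, and Il12rb1 fell there (-0.93 with an SE of 0.23 and an adjusted p of 0.00184), while Ifngr1 rose by 2.53. In Ars2 KO 8 passed, beside 23.6%, among them Il4ra, which fell (-0.87 with an SE of 0.14 and an adjusted p of 7.10e-05). The Ars2 KO count was 5 without Ars2 KO day 1 number 1 and 5 without Ars2 KO day 3 number 2.

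Whether the difference from WT itself changed between the days was tested as an interaction. In CD28 KO 6 members passed, beside 35.3% of all genes, in DKI 6 beside 32.5% and in CD28 AYAA 4 beside 24.4%. Il12rb1, Il12rb2, Il7r and Ifngr1 were called in all 3. For Il12rb1 the value was 4.65 with an SE of 0.42 and an adjusted p of 6.66e-08 in CD28 KO, so its difference from WT moved upward between day 1 and day 3. For Ifngr1 it was -1.70 with an SE of 0.32 and an adjusted p of 2.33e-04 in CD28 KO, so its difference from WT moved downward. In CD28 KO the count was 3 without WT day 3 number 4, and the calls lost were Il18r1, Il7r and Il6ra. In Ars2 KO 0 passed beside 3.68%, with 4 members at an unadjusted p under 0.05, 0 calls by limma-voom and 4 by DESeq2 (Il12rb1, Il4ra, Il21r and Ifngr1). The count was 2 without Ars2 KO day 1 number 3, 3 without Ars2 KO day 3 number 3 and 1 without WT day 1 number 4. The counts from these other fits were not set beside the share of all genes called in them. In CD28 Y170F 0 passed beside 0.0% of all genes, with 0 members at an unadjusted p under 0.05 and 0 calls by either other tool.

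Other genes of these receptor pathways were counted in the same comparisons, in which 43.3% of all genes were called in CD28 KO at day 1, and 12.9% in Ars2 KO, 21.7% in CD28 AYAA, 23.4% in DKI and 20.0% in CD28 KO at day 3. Of 16 kinases, STATs and MyD88 pathway genes, 4 were higher and 6 lower in CD28 KO at day 1, with a median log2 fold change of -0.04 beside 0.02 over all genes. Jak3, the kinase bound to the common gamma chain, was lower (-1.13), as were Myd88, the IL-18 receptor adaptor (-0.86), and Stat3 (-0.71). At day 3, 8 of the 16 were lower and 0 higher in CD28 AYAA, 7 lower and 1 higher in DKI, 5 lower and 0 higher in CD28 KO, and 4 lower and 0 higher in Ars2 KO. Jak3 was lower in each of the 4, with -0.46 in CD28 AYAA, -0.47 in DKI, -0.78 in CD28 KO and -0.37 in Ars2 KO.

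Of 13 genes that these cytokines are known to induce or that mark the resulting programmes, 6 were lower and 1 higher in CD28 KO at day 1, with a median of -1.09 beside 0.02 over all genes. Tbx21, the type 1 helper regulator T-bet, averaged 5.78 CPM in CD28 KO, 11.8 CPM in DKI and 20.5 CPM in CD28 AYAA, against 88.1 CPM in WT, and was lower in all 3 (adjusted p = 1.59e-09, 2.26e-07 and 9.87e-06). At day 3 Cish, a suppressor induced by STAT5, averaged 239.8 CPM in CD28 KO, 309 CPM in DKI, 288 CPM in CD28 AYAA and 243 CPM in Ars2 KO, against 60.6 CPM in WT, and was higher in each. Socs1, another suppressor of cytokine signalling, was higher in the same 4 mutants (0.96, 1.09, 1.04 and 0.72). Of the 13, 3 were higher and 1 lower in CD28 KO at day 3, 4 higher and 1 lower in DKI, 4 higher and 2 lower in CD28 AYAA, and 4 higher and 0 lower in Ars2 KO.

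Among 6 partner chains, Ifngr2, which pairs with Ifngr1, went against it at day 3 in CD28 KO, DKI and CD28 AYAA. It averaged 25.8 CPM in CD28 KO, 28.5 CPM in DKI and 25.4 CPM in CD28 AYAA, against 16.8 CPM in WT, and was higher in each (0.61, 0.75 and 0.58). Of the 6 chains at day 3, 2 were higher and 0 lower in CD28 KO and in DKI, and 1 was higher and 1 lower in CD28 AYAA. In Ars2 KO at day 3, where Ifngr1 was lower too, 0 of the 6 were called higher and 1 lower. Il2rg, the common gamma chain, was lower in CD28 KO at day 1 (-0.37), and Il6st, which encodes gp130, was higher there (0.67). In that comparison 2 of the 6 chains were higher and 1 lower. Of 20 tested among 22 other cytokine receptors, 5 were higher and 5 lower in CD28 KO at day 1, beside 43.3% of all genes called. Il2ra, the high-affinity IL-2 receptor chain, was lower (94.2 CPM in CD28 KO and 715 CPM in WT). Of the 10 ligand genes 6 could be tested, of which 0 were higher and 3 lower in CD28 KO at day 1. The ligand Ifng averaged 0.651 CPM in CD28 KO and 52.7 CPM in WT at day 1 (-6.31), and 18.5 CPM in CD28 KO and 2.28 CPM in WT at day 3 (3.17).

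The levels of the 10 genes can be ordered per kilobase of exon. In unstimulated WT Il7r was highest, at 62.0 CPM per kb, followed by Ifngr1 at 54.2 and Il27ra at 52.5, and Il12rb2 was lowest at 1.51. In WT at day 3 Ifngr1 was highest, at 211 CPM per kb, followed by Il4ra at 67.6 and Il12rb2 at 43.8. In CD28 KO at day 1 Il7r stood at 181 CPM per kb, while Il12rb1 and Il12rb2 stood at 1.52 and 0.992.

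Over the 13 group means of log2 CPM, the pairs of members that moved most alike were Il7r and Il6ra (Pearson r = 0.93), Il12rb1 and Il12rb2 (0.88), and Il18r1 and Ifngr1 (0.86). The neighbours Il18r1 and Il18rap had r = 0.80. Il12rb1 and Il7r ran against each other (-0.89), as did Il12rb2 and Il27ra (-0.88). Among 8489 genes with a mean log2 CPM of at least 3, those most like Il12rb1 were Strap (0.994), Ran (0.994) and Prelid3b (0.992), and those most like Il12rb2 were Ly6a (0.988), Got2 (0.985) and Hpf1 (0.984). Il7r was most like Mturn (0.974), Ldlrad4 (0.972) and Traf3ip3 (0.970), Il18rap was most like Lgals1 (0.984), Osbpl3 (0.981) and S100a6 (0.977), and Ifngr1 was most like Dap (0.971), Arhgdib (0.971) and Dleu2 (0.969). The nearest gene to Il18r1 was Ptbp3 (0.941), to Il6ra Ikbke (0.975), to Il27ra Eif4a2 (0.984), to Il21r Oas3 (0.907) and to Il4ra Senp1 (0.871). These correlations describe group means from the same 34 libraries, the points are not independent, and no p is given.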

How the data were processed

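The authors deposited RSEM-type expected counts of each gene in a single table of 34 libraries (columns not used here, 0). The tools bcl2fastq 2.20, STAR, RSEM, FastQC and limma, and the build names GRCm38 and mm10, come from the submitters' processing notes. Per the labels' protocols, the libraries were ribosomal RNA-depleted and marked strand by dUTP. Which annotation release was counted, and with which strand setting, is not given in the sources used here. Columns were matched to samples by name. For CD28 KO at day 3 the 2 columns carry other numbers than the sample titles and were matched to the group.

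Of 48526 identifiers, 48058 (99.0%) matched GENCODE M21, and 7 of the 10 members matched in the same version. Expected counts were rounded to whole numbers and fitted with edgeR 4.0.16 (R 4.3.3, limma 3.58.1), using TMM scaling, filterByExpr at its defaults and a separate mean for each of 13 groups in 34 libraries. Genes were called at a Benjamini-Hochberg adjusted p under 0.05 over 18292 genes by the quasi-likelihood F test, and the standard error is the size of the log2 fold change divided by the square root of F. CPM use TMM library sizes, except marker sums and the ranges of single cell markers, which use total counts. Errors beside means are SDs. Alternatives were RLE size factors, DESeq2 1.42.0, limma-voom, no filter, a fit to the groups compared, depth class or sex as a term, the replicate number as a block, and each library left out. Plots were drawn with matplotlib 3.10.9 and tables made with pandas 2.3.3 and numpy 2.4.6 under Python 3.11.15. The fitting code was also run on simulated counts with known changes in a single group. That setting is simpler than these data and holds no effect of depth class or sex, so nothing is concluded from it here.

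The members and lists were chosen with earlier results of these data known. All members are named, with up to 4 genes of each other list by smallest p, or up to 3 by likeness. Serbp1, Ifngr2, Il2rg, Il6st and genes shown on both days are named for their relation to a member. Replicate numbers were taken to pair the libraries where 3 or more numbers were shared and every correlation was over 0.1, which held between CD28 AYAA and CD28 Y170F at day 1 (0.368, 0.373 and 0.655) and between the days of CD28 AYAA (0.413, 0.163 and 0.548). Between the days of WT only 2 numbers were shared, and these also mark depth class. With 2 libraries in each group the 2 correlations are equal by construction, at 0.552. The reading of numbers as pairs comes from the data and the labels do not state it. In CD28 AYAA and CD28 Y170F the numbers also mark sex.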

Additional observations from a re-analysis of the deposited data

Results flagged for a closer look

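For 3 genotypes the difference from WT at day 3 was not the difference at day 1, by the interaction term of the edgeR fit with Benjamini-Hochberg adjustment over all genes. Values are the log2 fold change against WT at day 3 minus that at day 1. In CD28 KO they were 4.65 for Il12rb1 (adjusted p = 6.66e-08), 4.22 for Il12rb2 (5.10e-07), -1.14 for Il18r1 (0.0185), -2.05 for Il7r (0.00569), -1.38 for Il6ra (0.0278) and -1.70 for Ifngr1 (2.33e-04). In DKI they were 3.48 for Il12rb1 (adjusted p = 1.34e-06), 2.21 for Il12rb2 (1.25e-04), -1.37 for Il18r1 (0.00337), -2.20 for Il7r (0.00192), -1.40 for Il6ra (0.0177) and -1.97 for Ifngr1 (3.21e-05). In CD28 AYAA they were 2.51 for Il12rb1 (adjusted p = 5.90e-05), 1.64 for Il12rb2 (0.00273), -1.82 for Il7r (0.0119) and -1.32 for Ifngr1 (0.00231). The 3 genotypes share the 4 stimulated WT libraries. Without WT day 3 number 4 the Il7r value was -1.49 in CD28 KO and -1.25 in CD28 AYAA, and neither was called. The Il6ra values in CD28 KO and DKI were -0.90 and -0.92 without that library, and neither was called.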

How the results depend on the processing

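Over all members, comparisons and alternatives, 4417 of 4730 values kept their side of the threshold. Another 137 passed it only under the alternative and 176 only in the reported fit. Of the values called in either fit, 0 changed direction. Values called in neither fit are among the 4417 whether or not their direction changed, and some did change it. The cause of the differences was not tested, except that leaving out a library or fitting fewer groups lowers the number of libraries. The counts of members below were not set beside the share of all genes called under the same alternative, so they do not separate the members from all genes. Fitted on the compared groups alone, the count of members called was 3 for WT day 3 against day 1, 0 for Ars2 KO against WT at day 3, 7 for DKI against WT at day 1, 9 for DKI at day 1 against day 0, 5 between the days of Ars2 KO, and 7 at day 1 and 4 at day 3 for DKI against CD28 KO. With sex as a term it was 1 at day 1 and 5 at day 3 for Ars2 KO against WT, 1 for CD28 Y170F at day 1 and 1 for the Ars2 KO interaction. With depth class as a term it was 2 for DKI at day 1 and 1 for the Ars2 KO interaction. Calls against WT lost with that term were Il18r1 (0.73) and Il4ra (-0.41) in CD28 KO and Il7r (0.85) and Ifngr1 (0.41) in DKI at day 1, and Il12rb1 (0.81) and Il7r (-0.77) in Ars2 KO, Il12rb2 (-0.66) in CD28 KO and Il18rap (-0.65) in DKI at day 3. Without the filter it was 1 for CD28 Y170F at day 1, 1 for DKI against CD28 KO at day 3 and 3 for the Ars2 KO interaction. DESeq2 gave 1 for DKI against CD28 KO at day 3 and 4 for the Ars2 KO interaction, and limma-voom 1 for DKI against CD28 KO at day 1. With the replicate block the counts were 5 for CD28 AYAA against CD28 Y170F at day 1, 5 between the days of Ars2 KO, 5 for DKI against CD28 KO at day 1 and 8 between the stimulated days of WT, where Il12rb2 (0.44) and Il6ra (-0.71) were added. In the last 3 the numbers were not taken to pair the libraries, and in WT they also mark depth class. The block changed no call between the days of CD28 AYAA. No paired analysis was possible because of too few shared numbers for the mutants against WT and for CD28 KO at day 3.

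With 1 library left out, counts against WT ranged from 0 to 4 in Ars2 KO at day 3, 4 to 7 and 1 to 2 in CD28 KO at day 1 and day 3, 2 to 5 and 3 to 5 in DKI, 1 to 2 and 2 to 4 in CD28 AYAA, and 0 to 2 in CD28 Y170F at day 3. Against day 0 they ranged from 4 to 6 in CD28 KO at day 3, 3 to 5 in DKI at day 1 and 3 to 5 in CD28 AYAA at day 1. Counts ranged from 5 to 8 between the days of Ars2 KO, 1 to 2 for CD28 AYAA against CD28 Y170F at day 1, 1 to 2 for DKI against CD28 KO at day 1, 0 to 3 for the Ars2 KO interaction and 3 to 6 for the CD28 KO interaction. Where a library is left out of a pair, the remaining one is assumed to vary like the other groups. The lowest library count was 37.6 for Il12rb2 and 71 for Il12rb1, and the next lowest minimum among the members was 173 for Il18rap, so counting error is widest for the IL-12 receptor chains.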
